A study of Mus musculus with 9 samples.

Results

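The regions described here are consensus peaks of ZEB1 occupancy that entered the deposited peak lists after 48 and 72 h of eribulin. A region was a member when it overlapped, by at least 1 bp, a peak of the 48 h list and a peak of the 72 h list and none of the control or the 24 h list. The rule held for 364 of 23623 consensus peaks, of which 359 passed the filter on low counts. Members were thus chosen by the same libraries that are described below, so the rise from the early to the late libraries is a description and not a finding. The 5 members that were not tested lay nearest to Phf3, Sumo3, Ndor1, Slc35c1 and Fosb.

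ZEB1 was profiled by CUT&RUN (CUTANA assay, anti-Zeb1 antibody) in PB3 cells, mouse breast cancer cells labelled Er-/Pr-/Her2-. There were 4 groups of 2 libraries each. They were untreated cells, whose line is labelled PB3-Parental, and cells held in 300 nM eribulin for 24, 48 or 72 h, labelled PB3_ERI, while 1 library made with IgG served as the background of the peak calls. The sources used here do not say whether the 2 line labels stand for anything beyond the treatment. Nor do they say whether replicates were separate cultures, so the p-values reflect only how far these libraries spread.

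ZEB1 is a transcription factor with zinc fingers that binds E-boxes of the form CACCTG, or CAGGTG on the other strand, and recruits corepressors to genes of epithelial adhesion and polarity. It can also be found with AP-1 and YAP at other sites, and it is a main driver of the epithelial-mesenchymal transition in breast cancer. Eribulin blocks the growth of microtubules and thereby arrests cells in mitosis. In CUT&RUN a nuclease is brought to the antibody and frees the DNA around it, so a peak marks where the antibody was held and not whether a neighbouring gene changed its expression.

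Counts in the consensus peaks summed to 326944 to 765015 per library. The shallowest library was 72 h replicate 2 and the deepest was 48 h replicate 1. Each list's peak names cite replicate 1 against IgG, and replicate 1 held 372896 reads in the control, 602187 at 24 h, 765015 at 48 h and 441521 at 72 h. These are reads in consensus peaks and not whole libraries, and what part replicate 2 had in the lists is not stated. The replicate 1 total was lowest in the control, and the part of depth in membership was not tested. Signal below is given as CPM, the reads of a peak scaled to an equal total of peak reads in every library, so a shift common to all peaks would not show.

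Many members lay at gene starts, and the sequences of 4 such starts show what the regions look like. H2aj and Osbpl8 were the start sites of 2 of the 10 members with the highest late signal, and Bcl2 and Fas are cell death genes. Each stretch runs 5′ to 3′ on the gene's strand, was cut to the bases that lie within the member and before the start site, and comes from RefSeq promoters of GRCm38.p6. None of these 4 stretches holds CACCTG or CAGGTG, so they have no capitals. The stretches are only part of each member and need not hold the summit, the point of highest signal in a listed peak. At Bcl2 the 48 h and 72 h summits lay 63 and 72 bp after the start site, outside the stretch. The 48 h summit at H2aj lay 37 bp after the start site, also outside.

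H2aj, chr6:136808055-136808247, plus strand: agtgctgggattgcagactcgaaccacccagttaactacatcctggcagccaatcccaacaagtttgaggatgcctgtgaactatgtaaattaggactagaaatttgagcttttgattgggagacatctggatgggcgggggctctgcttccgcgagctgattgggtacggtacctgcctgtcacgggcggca
Osbpl8, chr10:111164556-111164776, plus strand: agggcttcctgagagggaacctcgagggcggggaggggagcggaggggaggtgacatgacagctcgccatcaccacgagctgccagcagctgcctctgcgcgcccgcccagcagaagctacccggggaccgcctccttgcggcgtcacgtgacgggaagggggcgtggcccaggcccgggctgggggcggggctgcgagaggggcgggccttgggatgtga
Bcl2, chr1:106714291-106714385, minus strand: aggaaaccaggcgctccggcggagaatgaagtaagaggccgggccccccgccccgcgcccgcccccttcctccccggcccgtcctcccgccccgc
Fas, chr19:34290463-34290658, plus strand: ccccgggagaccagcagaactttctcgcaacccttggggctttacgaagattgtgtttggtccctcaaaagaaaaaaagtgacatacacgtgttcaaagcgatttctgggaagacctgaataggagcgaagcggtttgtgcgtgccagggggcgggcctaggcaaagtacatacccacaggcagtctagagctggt

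The share of G and C was 52.3% in the H2aj stretch, 52.6% in Fas, 72.9% in Osbpl8 and 77.9% in Bcl2. E-boxes did occur in other member promoters, and 8 sites, at members with a late mean of at least 30.5 CPM, are shown in capitals with 12 bases on either side. They were picked after their values were seen. The first base of the E-box lies 180 bp before the start of Taf1d, 18 bp before that of Abca3, 116 bp before that of Ankle2, 87 bp before that of Spire2, 237 bp before that of Gm11423 (under the member nearest to Lig3), 209 bp before that of Tax1bp1, and 186 and 153 bp before that of Mrtfb.

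Taf1d, chr9:15306022-15306051, plus strand: caaatcgacgctCACCTGgcccgcagtgtc
Abca3, chr17:24351993-24352022, plus strand: gcaaacccggggCACCTGcaggggcggccc
Ankle2, chr5:110230876-110230905, plus strand: ctcggggcggcgCACCTGaagagcgagccg
Gm11423, chr11:82781262-82781291, minus strand: cgcgccgcccctCACCTGccttctcggctg
Tax1bp1, chr6:52713508-52713537, plus strand: taagacccaggtCACCTGgcctctgagcga
Spire2, chr8:123332614-123332643, plus strand: agcccccgccctCACCTGcatctgcccgcg
Mrtfb, chr16:13256283-13256312, plus strand: ccccggggcagcCAGGTGagagcgcggcgg
Mrtfb, chr16:13256316-13256345, plus strand: cgggcggcctcgCACCTGggttttaacttt

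Taf1d encodes a subunit of the RNA polymerase I factor SL1, and its member held a mean of 22.6 CPM over the early libraries and 42.5 CPM over the late ones. The Abca3 site, at a lipid transporter gene and under the member nearest to Abca17, lay 14 bp from the 48 h summit and 1 bp from the 72 h summit. The Spire2 site, at an actin nucleator gene, lay 9 bp from the 48 h summit and 137 bp from the 72 h summit. Mrtfb encodes a coactivator of serum response factor that responds to actin, and its sites lay 273 and 240 bp from the 48 h summit and 74 and 41 bp from the 72 h summit. The Taf1d site lay 100 and 149 bp from the 48 h and 72 h summits, the Ankle2 site 145 and 157 bp, the Gm11423 site 124 and 166 bp, and the Tax1bp1 site 274 and 271 bp. Distances thus ran from 1 to 274 bp.

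The share of promoters with an E-box was not above that elsewhere, though no test was run. The reference holds 32817 promoter windows of 300 bp, each from 250 bp before to 50 bp after a start site, and 160 members (44.0%) overlapped 203 of them, against 23.8% of all consensus peaks. CACCTG or CAGGTG was present in 28 of the 203 windows (13.8%). The share was 20.2% of all windows, 16.4% of the 7300 windows under any consensus peak, and 22.3% of those under peaks shared by the 3 eribulin lists and absent from control. The looser E-box CANNTG, which includes the former, was in 109 windows (53.7%) against 72.3% of all windows and 59.7% of those under any peak. The AP-1 motif TGANTCA was in 4 windows (1.97%) against 7.81% and 5.90%. The windows under members were rich in G and C, with a median of 65.3% and 26 CpG, where all windows had 52.7% and 7 and windows under any peak had 63.0% and 24. All motifs were searched on both strands and over the whole window, so a motif can lie outside the member. Windows under 1 member can also overlap each other. The 24 tested members with an E-box window had a median log2 change of 0.76 from the early to the late libraries. The 132 with windows that lacked one had 0.73. The rule chose all members by a rise between these libraries, so nothing is read from how close these values lie.

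The share of members at gene boundaries was above that of consensus peaks as a whole, a difference that was not tested. A boundary here means that the peak centre and either end of a protein-coding gene lay within 1 kb of each other, and 174 members (47.8%) met this, against 6685 (28.3%) of all consensus peaks. Another 103 members (28.3%) were inside such genes and 87 (23.9%) outside, against 36.1% and 35.6%. Other list patterns stood on either side, with 50.3% of the peaks in the 72 h list alone at boundaries, 42.8% of those in the 3 eribulin lists, 34.3% of those in all 4 lists, 27.6% of those in the 48 h list alone, 18.2% of those in the control list alone and 17.0% of those in the 24 h list alone. The members' median width was 291 bp (range 120 to 713 bp), against 347 bp for all consensus peaks, 372 bp for those in the 3 eribulin lists, 554 bp for those in all 4 lists, and 171 to 213 bp for those in a single list.

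**Figure D1:**
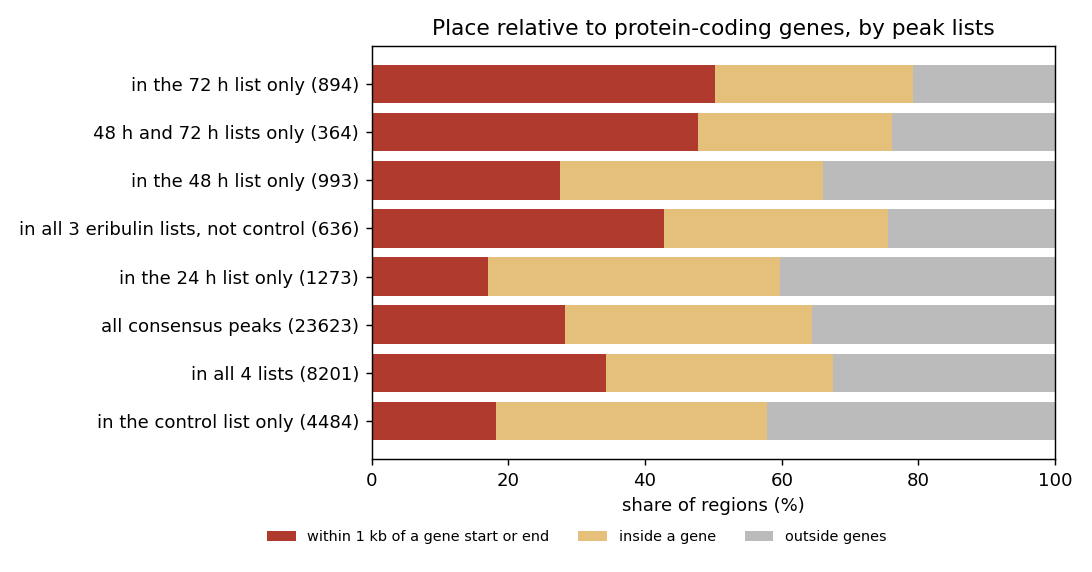
Stacked bars give the share of peaks (percent) at a gene boundary, inside a gene and outside genes, for the members and for other patterns of presence in the 4 peak lists. The boundary share is 47.8% in the members, 50.3% in the peaks of the 72 h list alone and 17.0% in those of the 24 h list alone.

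Where the strand was known, the boundary was mostly a start, in members as in other peaks. Of the 246 members whose gene has an entry in the promoter table, 156 (63.4%) had their centre within 1 kb of that gene's start site, against 40.2% of consensus peaks with such an entry. Centres lay upstream in 93 and downstream in 63, with a median offset of -21 bp. Of the 143 boundary members with an entry, 136 were at the start site, as were 5051 of 5485 such boundary peaks over the whole consensus. A member's centre lay 14 bp before the start of H2aj, a histone H2A variant, 37 bp before that of Fas and 136 bp before that of Osbpl8, a lipid transfer protein of the endoplasmic reticulum. In 30 members (8.24%) boundaries of more than 1 gene lay within 1 kb, against 5.44% of all consensus peaks.

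**Figure D2:**
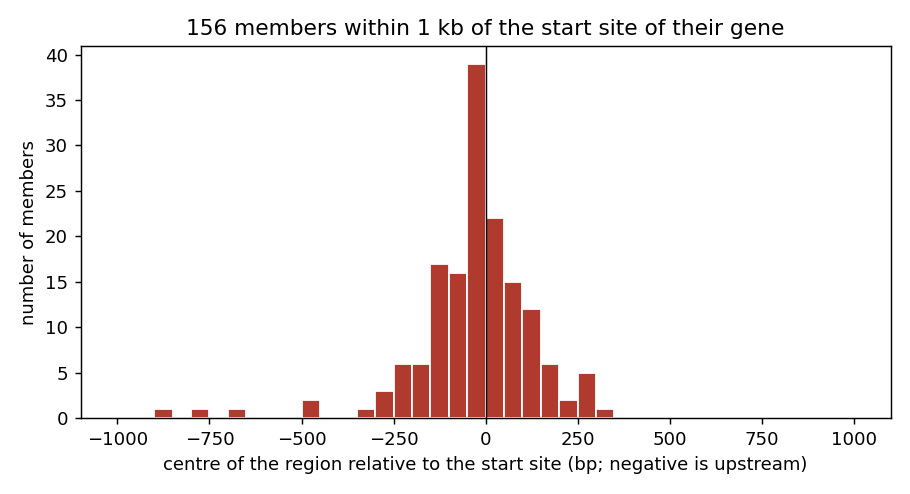
The histogram counts the 156 members with a centre within 1 kb of their gene's start site, by the distance of the centre from that site in bp, in bins of 50 bp. Counts peak close to the start site, with 93 centres upstream and 63 downstream.

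Gene assignments spread widely. A protein-coding or microRNA gene had its nearest boundary within 50 kb of 308 members (84.6%, against 77.4% of all consensus peaks), which gave 302 genes, and 56 members had none. Genes with 2 members included Ankrd44, Bcl2, Ldlrad4, Smtn and Zbtb7a. Of the 302 genes, 131 (43.4%) had another consensus peak that was already present in the control list. The gap to the next consensus peak had a median of 14356.5 bp, against 9656 bp for all peaks, and 2 members (0.549%) lay within 1 kb of a small RNA gene, against 0.775%. Assignment rests on distance alone, and no target was shown.

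Signal at the members was low in untreated cells and came closer to that of a typical peak at 48 and 72 h, a pattern that the member rule selects for. Over the 359 tested members the median was 13.8 and 16.8 CPM in the controls, 17.1 and 20.5 CPM at 24 h, 26.5 and 29.1 CPM at 48 h, and 30.0 and 31.4 CPM at 72 h. Every late library had a higher median than every early one, and the median of all 21192 tested peaks stayed between 34.5 and 35.9 CPM in the same libraries. The underlying counts were small, with medians of 5 and 11 reads per member in the controls and 10 to 20 in the eribulin libraries. No reads were counted at 2 of the 364 members in control replicate 1 and at 1 in control replicate 2, and every member had reads in every eribulin library. The members' replicates differed by a median of 38.9% in the controls, 30.8% at 24 h, 18.2% at 48 h and 22.4% at 72 h.

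**Figure D3:**
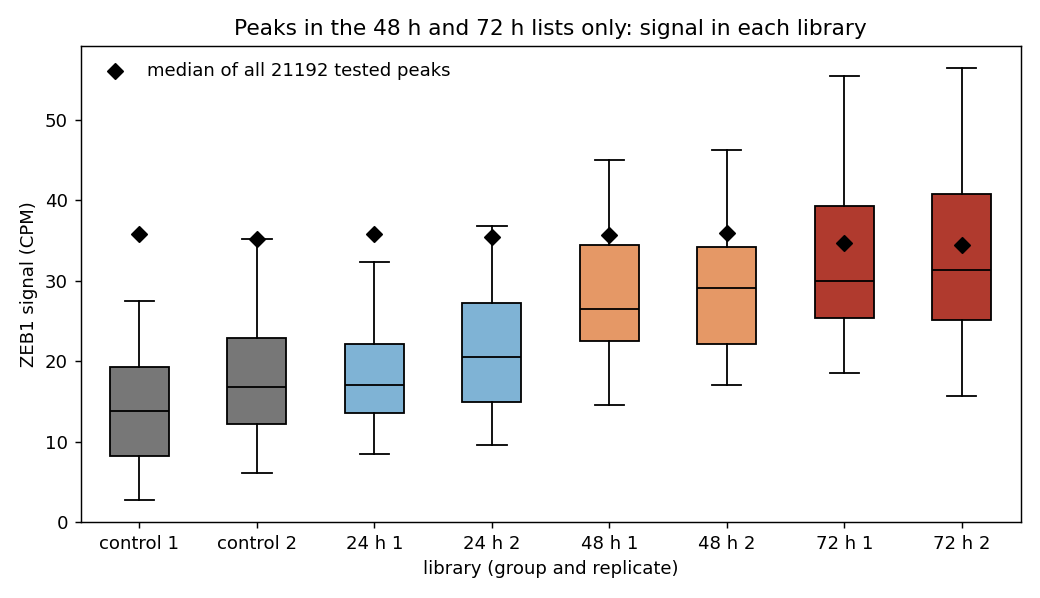
Boxes show CPM over the 359 tested members in each of the 8 libraries, with the median, the quartiles and whiskers from the 5th to the 95th percentile, and diamonds mark the median of all 21192 tested peaks. Member medians go from 13.8 and 16.8 CPM in the controls to 30.0 and 31.4 CPM at 72 h, while the diamonds stay between 34.5 and 35.9 CPM.

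In the authors' lists the members were weaker than the average peak. Their fold over IgG had a median of 6.68 (3.39 to 16.6) at 48 h, where the whole list had 8.92, and 5.48 (3.48 to 12.8) at 72 h, where the whole list had 6.82. The −log10 q had a median of 7.09 against 10.2 at 48 h and of 3.68 against 6.45 at 72 h. The strongest members by the smaller −log10 q of both lists were near Dusp7, an ERK phosphatase (27.8 and 17.5), at H2aj (16.4 and 12.3), and inside Cuedc1, nearest to Mrps23 (11.2 and 11.9). The Dusp7 member held 8.25 and 15.3 CPM in the controls, 20.5 and 24.6 CPM at 24 h, 41.0 and 35.9 CPM at 48 h, and 46.2 and 37.6 CPM at 72 h.

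Regions near the threshold show how thin the line of membership is. The weakest members, at Nedd1, a gene for a centrosomal anchor of gamma-tubulin, Cebpd, a transcription factor gene, and Wdr5b, each had a −log10 q of 1.33 and a fold of 3.48 at 72 h. Wdr5b held 8.25 and 22.9 CPM in the controls and 20.8 and 22.0 CPM at 72 h, so its early and late libraries overlapped. Just outside were Nrbp1 and Hoxa3, kept out by a control peak with a −log10 q of 1.37, and Usp12, kept out by a 24 h peak at 1.43. At Hoxa3, a homeobox gene, the controls held 30.3 and 27.5 CPM and the 72 h libraries 64.7 and 53.3 CPM, which is the pattern of a member. Usp36 was in the 48 h list alone, with 43.7 to 66.7 CPM in its late libraries, and Asmt and Elk4 were in the 72 h list alone.

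Fitted changes followed the choice of the members. The mean of 48 and 72 h minus the mean of control and 24 h, called late minus early here, had a median log2 change of 0.72 over the 359 members, with a range from -0.17 to 2.11, and was above 0 in 358, where all tested peaks had a median of 0.01. By edgeR's quasi-likelihood test with Benjamini-Hochberg adjustment, 139 members (38.7%) were called higher and none lower, beside 6.74% of all tested peaks called higher. In 161 members (44.8%) the 4 late libraries all lay above the 4 early ones, beside 5.29% of all tested peaks. Against control alone, 79 members (22.0%) were called higher at 48 h beside 6.09% of all tested peaks, and 94 (26.2%) at 72 h beside 6.84%. The median log2 change was 0.74 at 48 h and 0.96 at 72 h, comparisons that share the control libraries. Against 24 h, 5 members (1.39%) were called higher at 48 h beside 0.222%, and 25 (6.96%) at 72 h beside 2.32%. The rule used all of these contrasts, and nothing is read from the counts.

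These counts depended on the test and on single libraries. DESeq2 called 1 member at 48 h, 2 at 72 h and 2 for late minus early (those near Clec4d and Vdr), and it gave no adjusted p to 343, 333 and 333 of the 359 members. Without control replicate 2 the edgeR counts were 17 at 48 h, 24 at 72 h and 90 for late minus early, and without control replicate 1 they were 47, 52 and 95. Leaving out a library of 48 h gave 43 or 48 at 48 h, leaving out a library of 72 h gave 32 or 45 at 72 h, and late minus early gave 79 without 72 h replicate 1. With every library thinned to the smallest total, 27, 44 and 58 members were called.

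The largest late minus early changes without overlap between early and late libraries lay near genes of several kinds. Smurf2, a ubiquitin ligase gene whose product acts on Smads and TGF-beta receptors, led them with a member at chr11:106920869-106921105, centred 272 bp before the start site. Its signal was 5.50 and 1.53 CPM in the controls, 10.2 and 8.19 CPM at 24 h, 22.5 and 17.1 CPM at 48 h, and 23.1 and 18.8 CPM at 72 h (log2 change 1.94, SE 0.450). The libraries of 48 and 72 h overlapped, with a 72 h minus 48 h log2 change of 0.08 (SE 0.464).

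Dkk2 encodes a secreted modulator of Wnt receptors, and its member lay inside the gene, 37598 bp after the start site. It held 8.25 and 4.59 CPM in the controls, 17.1 and 20.5 CPM at 24 h, 34.4 and 32.5 CPM at 48 h, and 25.4 and 40.8 CPM at 72 h (1.61, SE 0.326). The member nearest to Pcdh7, a protocadherin gene, held 13.8 and 7.64 CPM in the controls, 22.2 and 16.4 CPM at 24 h, 41.0 and 47.9 CPM at 48 h, and 43.9 and 31.4 CPM at 72 h (1.58, SE 0.284). In both regions the libraries of 48 and 72 h overlapped. The 72 h minus 48 h log2 change was -0.07 (SE 0.352) at Dkk2 and -0.19 (SE 0.315) near Pcdh7. Clec4d, a gene for a C-type lectin receptor of myeloid cells, had a member 1768 bp before its start with 8.25 and 15.3 CPM in the controls, 39.2 and 27.3 CPM at 24 h, 54.2 and 71.9 CPM at 48 h, and 62.4 and 43.9 CPM at 72 h (1.5, SE 0.243). A further 5 of the 10 largest changes lay near the potassium channel gene Kcnk2 (1.54), at the zinc-finger gene Zfp202 (1.48), at 0610030E20Rik (1.44), near the tight junction gene Marveld2 (1.43) and at Ythdf3 (1.42), a gene for a reader of N6-methyladenosine in RNA.

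**Figure D4:**
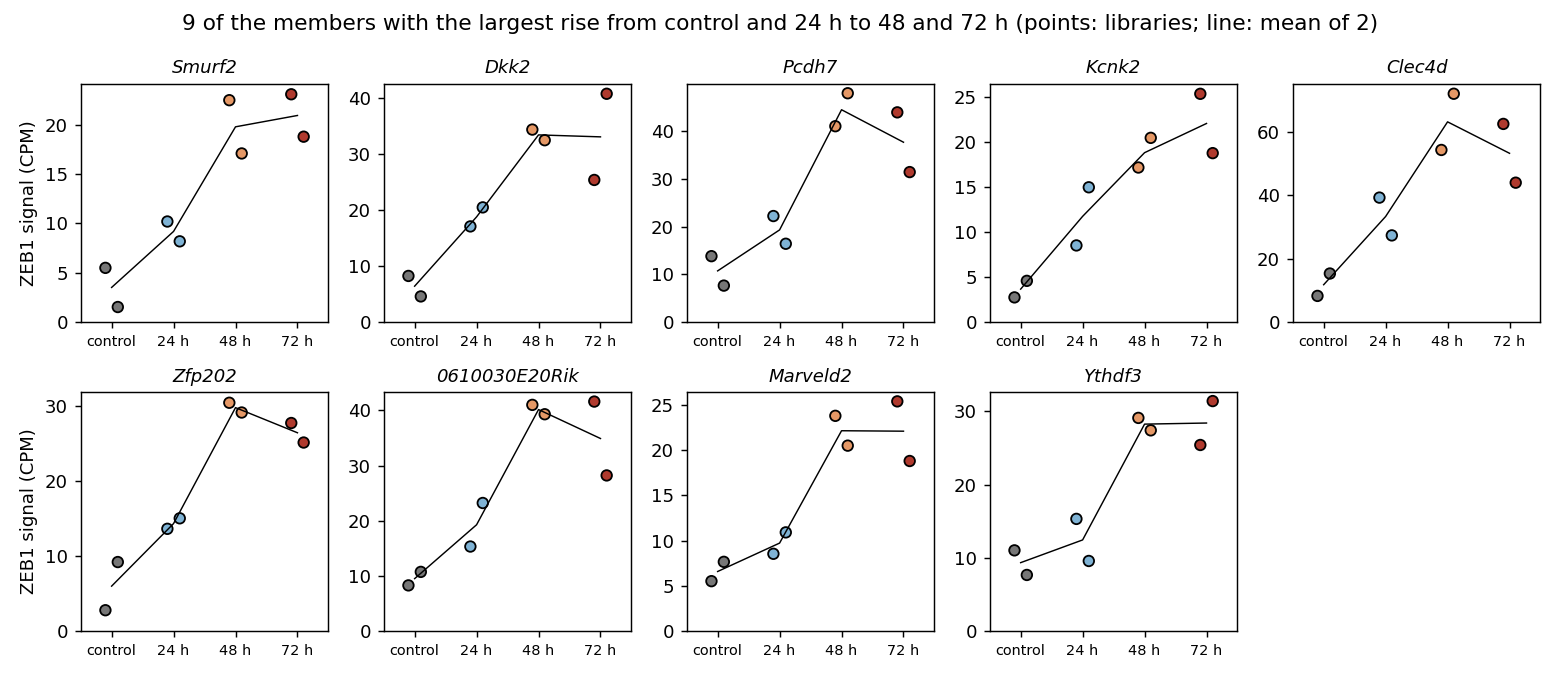
Each panel plots 1 of 9 members among the 10 with the largest late minus early change among those whose late libraries all lie above the early ones. Points are the CPM of the 2 libraries at control, 24, 48 and 72 h, and the line joins their means. Smurf2 goes from 5.50 and 1.53 CPM in the controls to 23.1 and 18.8 CPM at 72 h.

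The 10 members with the highest late signal had late minus early changes from 0.49 to 1.5. Zbtb7a, which encodes a transcriptional repressor, had a member inside the gene with 30.3 and 58.1 CPM in the controls, 23.9 and 30.0 CPM at 24 h, 55.6 and 54.7 CPM at 48 h, and 78.6 and 72.1 CPM at 72 h. Control replicate 2 was above both 48 h libraries, so early and late overlapped. H2aj held 33.0 and 41.3 CPM in the controls, 32.4 and 58.7 CPM at 24 h, 60.9 and 53 CPM at 48 h, and 64.7 and 65.9 CPM at 72 h, again with an overlap through 1 library of 24 h. The member upstream of Vdr, the vitamin D receptor gene, 5991 bp before its start, held 24.8 and 6.11 CPM in the controls, 30.7 and 43.7 CPM at 24 h, 51.6 and 44.5 CPM at 48 h, and 67.0 and 69.0 CPM at 72 h (1.37, SE 0.241). Its 4 late libraries lay above the early ones, although the controls differed widely. Osbpl8 held 24.8 and 32.1 CPM in the controls, 29.0 and 30.0 CPM at 24 h, 52.9 and 42.8 CPM at 48 h, and 46.2 and 62.7 CPM at 72 h. Besides these 4 and Clec4d, the 10 included the GTPase regulator gene Arhgap23 (late minus early 0.49), the phosphoinositide phosphatase gene Inpp5k (0.60), the zinc-finger gene Hivep3 (0.55), the ubiquitin ligase gene Cnot4 (0.57) and the RNA-binding protein gene Sltm (0.63). The late minus early changes at H2aj, Arhgap23, Hivep3 and Cnot4 were not called.

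Between control and 24 h the rule asked only for absence from both lists, so it set no direction. Absence itself limits how high the signal could be in either group. Replicate 1, which the lists cite, held 372896 reads in consensus peaks in the control and 602187 at 24 h. The part of this difference in depth was not tested, so the values below are not free of the choice of members. Of the 359 members, 17 (4.74%) were called by edgeR, all of them higher at 24 h, where 11.0% of all tested peaks were called in either direction and 6.44% higher. The median log2 change was 0.26 with a range from -1.04 to 3.13, against -0.01 over all tested peaks, and the 24 h mean lay above the control mean in 264 members (73.5%) against 49.4% of all tested peaks. At an unadjusted p under 0.05 there were 60 of the 359 members, beside 5419 of the 21192 tested peaks. The 17 calls rested on control replicate 2: without it 2 members were called, 1 of them (nearest to Ch25h) among the 17. Without control replicate 1 there were 11, and without 24 h replicate 2 there were 6. DESeq2 called 0 members, thinned libraries gave 2, and 328 members had no adjusted p in DESeq2.

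Cacul1, a gene for a cullin-domain protein bound to CDK2, had the smallest p among these. Its member, 760 bp before the start site, held 8.25 and 6.11 CPM in the controls, 39.2 and 30.0 CPM at 24 h, 30.4 and 35.9 CPM at 48 h, and 34.7 and 31.4 CPM at 72 h (24 h minus control log2 change 2.27, SE 0.470, adjusted p = 0.000352, and 0.0808 without control replicate 2). The 24 h libraries overlapped the later ones, although no 24 h peak was listed there. Spire2 rose to 30.7 and 45.0 CPM from 13.8 and 10.7 CPM (1.69, SE 0.402, adjusted p = 0.00208), and its late libraries, at 23.1 to 34.5 CPM, overlapped those of 24 h. At the boundary member of Cmpk1, a nucleotide kinase gene, the controls held 2 reads together and the 24 h libraries 25, a ratio of 9.68 after scaling to library totals, with a 95% exact interval from 2.41 to 84.4 that covers counting error only. Calls were also made for Ldlrad4, an inhibitor of TGF-beta signalling (2.04), near the blood group glycoprotein gene Rhag (1.91), near the proton pump gene Atp6v0a1 (1.56), near Vdr (1.55), Clec4d (1.34) and inside the innate immune regulator gene Nlrc3 (1.3). With adjusted p from 0.00540 to 0.0266, none of these 6 passed without control replicate 2.

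Between 48 and 72 h the rule set no direction either, although presence in both lists asks for enough signal at each time. Replicate 1, which the lists cite, held 765015 reads in consensus peaks at 48 h and 441521 at 72 h. The part of this difference in depth was not tested, so these values are not free of the choice of members. No member was called by edgeR, beside 0.0378% of all tested peaks called in either direction. The median log2 change was 0.15 with a range from -0.80 to 1.16, against 0.00 over all tested peaks, and the 72 h mean was the higher in 240 members (66.9%) against 49.8%. An unadjusted p under 0.05 was reached by 21 of the 359 members, beside 2045 of the 21192 tested peaks. The smallest adjusted p of a member was 0.297, and DESeq2 called 0. A p that misses the threshold does not show equal signal at both times: at Smurf2 the change was 0.08 with an SE of 0.464, so a change of that size could not be told from a moderate rise or fall. The largest differences among the members named here were at Vim (0.83, SE 0.399) and near Mrps23 (0.77, SE 0.303). Boundary members had a median of 0.21 between these times, and all boundary peaks 0.17.

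**Figure D5:**
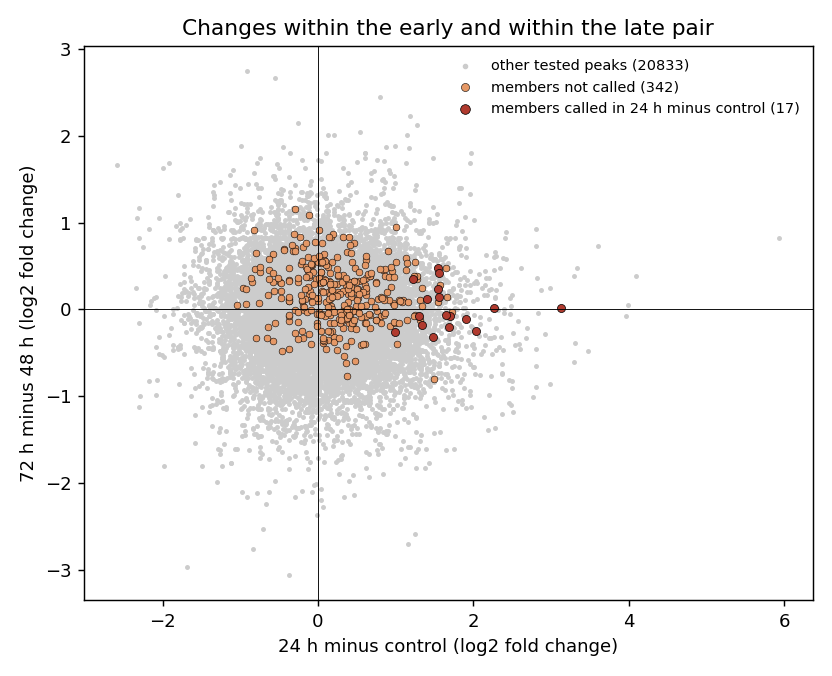
Each point is a tested peak, with the log2 change from control to 24 h on the x axis and from 48 to 72 h on the y axis, the 2 steps for which the rule sets no direction. Grey points are the 20833 other peaks, coloured points the 342 members that were not called and the 17 members called at 24 h against control, and no member was called on the y axis.

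Group means come from the same libraries that chose the members. The 48 h mean lay above the 24 h mean in 339 of 359 members (94.4%), beside 50.4% of all tested peaks, a step that the rule fixed. All 3 steps pointed up in 152 members (42.3%), beside 8.72% of all tested peaks. Since the rule fixes 1 of these steps, nothing is read from this. Both late means lay above both early means in 316 members (88.0%), beside 21.0% of all tested peaks. In 43 members at least 1 early mean thus reached a late one.

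Members at boundaries and elsewhere had close medians in late minus early. This is the contrast closest to the member rule, so nothing is read from how close they lie. The median late minus early log2 change was 0.75 in the 170 tested at boundaries, 0.67 in the 103 inside genes and 0.70 in the 86 outside, with 69, 39 and 31 called higher. Over all tested peaks, which were not chosen by this contrast, the median was 0.27 at boundaries (876 called higher and 61 lower of 6024). It was -0.07 inside genes (336 and 532 of 7610) and -0.14 outside (216 and 717 of 7558).

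In the gene lists drawn up around ZEB1 and eribulin, the share of members was close to that of all consensus peaks, and no test was run. All 308 listed genes matched the gene table by symbol or synonym, and they had 548 consensus peaks, of which 11 (2.01%) were members, where members make up 1.54% of all consensus peaks. By list the share was 6.38% for ZEB1 corepressors and chromatin and 4.92% for p53 and cell death. It was 2.5% for TGF-beta and BMP, 2.38% for epithelial junctions and keratins, 1.25% for the mesenchymal list and 1.09% for Hippo, YAP and AP-1. The other lists had no member, and none had more than 3. The list of epithelial junctions and keratins had 1 member among 42 peaks. That member lies near Marveld2, which encodes tricellulin, a protein of tight junctions where 3 cells meet, and 22681 bp after its start site. It held 5.50 and 7.64 CPM in the controls, 8.53 and 10.9 CPM at 24 h, 23.8 and 20.5 CPM at 48 h, and 25.4 and 18.8 CPM at 72 h. Of the list's other 39 tested peaks, 1 was called higher and 4 lower in late minus early. Apical-basal polarity had no member among 17 peaks, with 4 called higher and none lower.

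The mesenchymal list had 1 member among 80 peaks, near Vim, the gene of the intermediate filament vimentin. It lies at chr2:13572108-13572454, 2030 bp before the start site, and held 11.0 and 26.0 CPM in the controls, 13.6 and 30.0 CPM at 24 h, 15.9 and 24.0 CPM at 48 h, and 37.0 and 31.4 CPM at 72 h. Only 72 h stood above the other times, and late minus early was 0.26 (SE 0.284, not called). The peak at the Vim boundary, chr2:13573568-13574543, was in the control and 72 h lists and not in the lists between, and it fell against control at 24 h (-1.10, SE 0.213, adjusted p = 0.00013) and at 48 h (-0.68, SE 0.198, adjusted p = 0.0149). At 72 h it differed from control by -0.31 (SE 0.216, adjusted p = 0.361), and its late minus early change was 0.06 (SE 0.156, adjusted p = 0.852). Of the other 72 tested peaks of the list, 1 was called higher and 7 lower.

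TGF-beta and BMP genes had 2 members among 80 peaks, at Smurf2 and Smad4. Smad4, the common partner of the receptor-activated Smads, had a boundary member with 11.0 and 12.2 CPM in the controls, 6.82 and 10.9 CPM at 24 h, 14.6 and 20.5 CPM at 48 h, and 27.7 and 18.8 CPM at 72 h. Its late libraries all lay above its early ones, by a log2 change of 0.95 (SE 0.364, not called). Among the other 64 tested peaks of the list, 4 were called higher and 6 lower. The Hippo, YAP and AP-1 list had 1 member among 92 peaks, at Fosb, which was not tested, and of its 80 tested peaks 5 were called higher and 6 lower.

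ZEB1 corepressors and chromatin genes had 3 members among 47 peaks. Ezh2, the methyltransferase of Polycomb repressive complex 2, had a member inside the gene with 19.3 and 16.8 CPM in the controls, 27.3 and 25.9 CPM at 24 h, 42.3 and 46.2 CPM at 48 h, and 48.5 and 53.3 CPM at 72 h (log2 change 1.11, SE 0.239). The libraries of each time stood above those of the time before, with no overlap between times. No single step was called, with log2 changes of 0.58 (SE 0.393), 0.73 (SE 0.291) and 0.20 (SE 0.29) in order of time. Its other peak, at the gene boundary and in all 4 lists, also rose in late minus early (0.79, SE 0.226, adjusted p = 0.0129). Smarcb1, a core subunit of the SWI/SNF remodeller, had a member at its start site (0.84, SE 0.293) and Arid1b, an alternative subunit of the same complex, one inside the gene (0.39, SE 0.256, not called). At Arid1b replicate 2 was above replicate 1 at every time, from 16.5 and 27.5 CPM in the controls to 27.7 and 50.2 CPM at 72 h, so the groups overlapped. Of the other 40 tested peaks of the list, 6 were called higher and 2 lower.

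Genes of p53 and cell death had 3 members among 61 peaks. Bcl2, which restrains mitochondrial cell death, had a member over its start site, printed above, with 8.25 and 22.9 CPM in the controls, 17.1 and 27.3 CPM at 24 h, 41.0 and 37.6 CPM at 48 h, and 41.6 and 56.5 CPM at 72 h (1.11, SE 0.253). Fas, a death receptor gene, had a member over its start with 11.0 and 19.9 CPM in the controls, 23.9 and 19.1 CPM at 24 h, 33.1 and 42.8 CPM at 48 h, and 43.9 and 31.4 CPM at 72 h (1.00, SE 0.264). In both genes the late libraries lay above all early ones. A further Bcl2 member, outside the gene, changed by 0.47 (SE 0.279, not called), and a further Fas peak, in all 4 lists and outside the gene, fell in late minus early (-0.43, SE 0.144, adjusted p = 0.0346). Of the other 54 tested peaks of the list, 4 were called higher and 3 lower.

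The remaining lists had no member. They were the Wnt pathway with 50 peaks, microtubule and mitosis genes with 46, interferon and innate sensing genes with 24, and neuronal, muscle and blood genes, which these cells would not be thought to use, with 9. Their tested peaks were called higher and lower in 3 and 4 cases, 2 and 2, 3 and 2, and 1 and 1.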

How the data were processed

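The authors deposited raw counts per library over consensus peaks and, for each group, a narrowPeak list with a fold (ratio) over IgG, a −log10 p and q and an integer score per peak. Per the file headers and names, each list compares replicate 1 with IgG at an FDR of 0.05, and the sources used here do not say how replicate 2 entered. Per the submitters' processing notes, MACS2 2.1.1, Bowtie2 2.2.6, bedtools 2.30.0 and featureCounts were used with mm10 (GRCm38), beside cutadapt 2.4, Picard, deepTools and bcl2fastq 2.20.0.422. Membership was computed in Python 3.11.15 and checked with bedtools 2.31.1.

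Counts were fitted with edgeR 4.0.16 in R 4.3.3 (filterByExpr by group, TMM factors 0.994 to 1.01, robust quasi-likelihood, 1 mean per group, 4 residual degrees of freedom), which tested 21192 peaks. Calls needed an adjusted p (Benjamini-Hochberg, over all of them) under 0.05. The steps were tested on simulated data in which changed peaks were drawn only from those at or above the median signal. The members' median signal was lower, so that test does not cover calls at such regions. Replicate pairs gave a chi-square per degree of freedom of 0.931 (control), 0.953 (24 h), 1.06 (48 h) and 0.965 (72 h), which is close to counting error. Replicate numbers did not pair the libraries (correlations of deviations -0.0302 to 0.001).

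Genes came from the NCBI table of GRCm38.p6 and promoters from RefSeq. Alternatives were DESeq2 1.42.0, RLE factors, no filter, a replicate block, thinned libraries, each library left out, and other member rules. Summed replicate pairs and DESeq2 without its filter on low means were added after the data were seen. The members and lists were chosen with earlier results of these data known. Members named were the 10 with the highest late CPM, the 10 with the largest late minus early change without overlap, up to 10 with the smallest p among those called in each of 24 h minus control and 72 h minus 48 h, those in a gene list, and the 3 weakest and strongest by −log10 q. Ch25h, Phf3, Sumo3, Ndor1, Slc35c1 and the genes of the E-box sites were named after their values were seen. The coverage tracks were not used here, and some members that meet these rules are not reported here.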

Additional observations from a re-analysis of the deposited data

Results flagged for a closer look

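A test of the difference between times (edgeR, Benjamini-Hochberg adjustment) found members whose change from control was larger at a late time than at 24 h. There were 5 between 48 and 24 h, beside 0.222% of all tested peaks, and 25 between 72 and 24 h, beside 2.32%. The member rule used both contrasts, so these are descriptions. Of the members named in the text, the one near Pcdh7 differed between 48 and 24 h by a log2 change of 1.21, and between 72 and 24 h Zbtb7a differed by 1.47, the member nearest to Mrps23 by 1.10 and Inpp5k by 0.89.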

How the results depend on the processing

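No member was called between 72 and 48 h under any alternative. For 24 h minus control (17 members called), 48 h minus control (79), 72 h minus control (94) and late minus early (139), DESeq2 called 0, 1, 2 and 2, the same numbers with its filter on low means switched off. Thinned libraries gave 2, 27, 44 and 58, and members with a −log10 q of at least 5 in both late lists, 113 in place of 364, gave 7, 32, 45 and 60. Leaving out 1 library at a time gave 2 to 18, 17 to 79, 24 to 96 and 79 to 114, and 0 to 0 between 72 and 48 h. With replicate number as a block the counts were 18, 81, 91 and 140, and with summed pairs 14, 76, 83 and 131. RLE factors, no filter and a rule that asked for more overlap kept each count within 1.5 times. The boundary share was 44.8% with 500 bp and 53% with 2 kb, and 49.6% with the stricter lists. Of the 39 tested members chosen by the naming rule, none reversed its late minus early direction under an alternative that gave it a value. The member rule chose regions in this direction, so nothing is read from that. Under DESeq2 without its filter on low means, 27 of the 39 lost their late minus early call and 12 kept their status, called or not. With thinned libraries 12 lost the call and 22 kept their status. Median counts of 5 to 20 reads per member and library limit the precision.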
